A study of Rattus norvegicus with 24 samples.

Results

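Mast cells are tissue-resident immune cells that store proteases, histamine and heparin in granules, and 8 genes that mark them were followed here through rat lung. The genes were chosen by name: Cpa3, Tpsb2, Tpsab1 and Cma1 for the granule proteases, Fcer1a and Ms4a2 for the IgE receptor, Kit for the growth factor receptor and Hdc for the enzyme that makes histamine. All 8 had a row among the 30667 genes of the table, and all 8 passed the filter on low values. The study profiled lung tissue of Rattus norvegicus by mRNA sequencing in 24 samples of a lung cancer model induced with smoky coal. Each title joins 1 of 4 letters (A to C, and G) to a number between 1 and 6, which gave 6 samples per letter and 4 samples per number, 1 for each letter. Every sample carries the label smoky coal, and no strain, age, sex, dose, time point or control is given for a letter or a number. Nothing says that the samples came from separate animals, so p-values measure the spread between these samples, which may be technical.

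Mast cells mature in the tissue under stem cell factor, the ligand of KIT, and bind IgE through a receptor of an alpha chain (Fcer1a), a beta chain (Ms4a2) and a shared gamma chain (Fcer1g). Crosslinked IgE makes them release the granule, in which tryptases, chymases and carboxypeptidase A3 are bound to heparin, and start the synthesis of leukotrienes and prostaglandin D2. In rodent lung they lie mostly along airways and vessels and in the pleura. Kit and Hdc are less specific than the other genes, since capillary endothelium of the lung also makes Kit and other leukocytes also make Hdc.

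GATA2 and MITF are transcription factors that mast cells need, and the stretches before the annotated start of 6 members are shown: Cpa3, Cma1, Fcer1a, Tpsb2 and Tpsab1, which were positively correlated over the samples, and Kit, which was not correlated positively with them. Each is the 250 bases before the start in rat RefSeq, build GRCr8, written 5′ to 3′ along the gene. Capitals mark matches on either strand to GATA spellings, which are AGATAA, its form with a changed first letter TGATAA, its form with a changed last letter AGATAG and the form with both changes TGATAG. They also mark the E-box spelling CACGTG and the variant of it that reads CATGTG. Cpa3 is at chr2:104673238-104673487 on the minus strand, Cma1 at chr15:33390134-33390383 on the minus strand, Fcer1a at chr13:88224680-88224929 on the minus strand, Tpsb2 at chr10:14886060-14886309 on the plus strand, Tpsab1 at chr10:14867303-14867552 on the minus strand and Kit at chr14:32978813-32979062 on the minus strand.
Cpa3: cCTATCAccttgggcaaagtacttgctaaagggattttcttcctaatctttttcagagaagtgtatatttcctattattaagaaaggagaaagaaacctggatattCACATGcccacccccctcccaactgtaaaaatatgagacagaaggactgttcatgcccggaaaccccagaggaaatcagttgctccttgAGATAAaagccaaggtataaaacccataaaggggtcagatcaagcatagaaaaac
Cma1: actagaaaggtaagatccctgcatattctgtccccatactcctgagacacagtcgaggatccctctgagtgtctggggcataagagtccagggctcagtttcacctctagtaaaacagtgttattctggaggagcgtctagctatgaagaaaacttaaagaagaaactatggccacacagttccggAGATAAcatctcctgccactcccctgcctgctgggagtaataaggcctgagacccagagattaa
Fcer1a: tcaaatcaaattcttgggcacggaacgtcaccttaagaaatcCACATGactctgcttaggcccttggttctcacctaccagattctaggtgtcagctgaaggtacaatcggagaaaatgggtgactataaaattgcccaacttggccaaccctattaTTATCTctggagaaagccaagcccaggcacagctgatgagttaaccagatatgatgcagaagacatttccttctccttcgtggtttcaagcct
Tpsb2: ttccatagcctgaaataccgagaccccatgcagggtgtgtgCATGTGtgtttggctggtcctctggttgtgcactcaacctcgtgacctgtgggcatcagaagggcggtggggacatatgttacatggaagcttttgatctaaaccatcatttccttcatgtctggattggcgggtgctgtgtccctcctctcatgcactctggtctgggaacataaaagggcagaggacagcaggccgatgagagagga
Tpsab1: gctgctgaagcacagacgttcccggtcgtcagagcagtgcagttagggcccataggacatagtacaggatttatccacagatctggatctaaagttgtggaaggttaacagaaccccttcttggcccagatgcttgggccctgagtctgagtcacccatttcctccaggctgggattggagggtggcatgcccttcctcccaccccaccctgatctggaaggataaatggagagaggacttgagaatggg
Kit: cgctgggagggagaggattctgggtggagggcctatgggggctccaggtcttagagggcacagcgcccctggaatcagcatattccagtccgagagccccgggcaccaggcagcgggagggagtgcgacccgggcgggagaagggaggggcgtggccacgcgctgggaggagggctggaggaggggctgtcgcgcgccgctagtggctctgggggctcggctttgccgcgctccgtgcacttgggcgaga

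Of the 8 members, 7 had a promoter entry, the other being Ms4a2. A GATA spelling occurred in 3 of the 7 (Cpa3, Cma1 and Fcer1a, but neither tryptase) and in 27.0% of all 33469 promoters of this length. AGATAA by itself, which is the match nearest to the start in all 3, occurred in 10.3% of promoters. An E-box spelling occurred in 3 of the 7 (Cpa3, Fcer1a and Tpsb2) and in 17.1% of promoters, each time as CATGTG. Kit, Hdc and Tpsab1 held none of these spellings. Other strings were looked at too: the 5 letters GATAA occurred in 4 of the 7 (with Tpsab1) and 23.5% of promoters, CAGCTG in 1 (Fcer1a) and 12.0%, and TATAAA in 2 (Cpa3 and Fcer1a) and 12.9%. The capitals above were settled with these matches known. The Kit stretch was 70.8% G or C, and that of Cpa3 was 40.8%. These matches describe the letters of the sequence and not binding.

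Values are normalized read counts per gene, adjusted by the authors toward a common library size. Their sum was 61717516 to 66007148 per sample, and the depth before normalization is unknown. The lung label fitted its markers: the lowest sample had 603887 normalized counts of the surfactant gene Sftpc, 112843 of the alveolar type 1 gene Ager and 303417 of the club cell gene Scgb1a1. The highest summed levels were in A4 for oesophagus epithelium (16285) and skeletal muscle (76691) and in A2 for neutrophil markers (36130). B4 was next for skeletal muscle (18859, with A2 following at 3621), so each count below was also taken without A2, A4 and B4, a choice made after seeing the data.

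Mast cell protease genes differed widely between samples. Cpa3, which encodes mast cell carboxypeptidase A, ranged from 35.2 normalized counts in B1 to 587 in C4, a ratio of 16.7, with a median of 182. Tpsb2, a tryptase, ranged from 15.6 in B1 to 160 in C3, a ratio of 10.2, with a median of 56.6. The second tryptase gene, Tpsab1, ranged from 1.91 in B3 to 55.9 in C3, with a median of 15.8. Cma1, the mast cell chymase, ranged from 14.6 in B1 to 166 in C4, a ratio of 11.3, with a median of 53.6. B1 was thus the lowest sample for 3 of the 4 proteases, and C3 or C4 was the highest for all 4.

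Transcripts of the alpha and beta chains of the IgE receptor were low, unlike Fcer1g of the gamma chain, which had 4433 to 9939 normalized counts. Fcer1a, the chain that binds IgE, ranged from 0.0133 normalized counts in C1 to 48.1 in A3, with a median of 9.53. Ms4a2, the beta chain that amplifies the signal, ranged from 17.3 in C2 to 74.2 in C3, a ratio of 4.30, with a median of 32.8. C3 had the second highest value of Fcer1a, at 24.4, and A3 the second highest of Ms4a2, at 73.2.

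Kit and Hdc varied little by comparison. Kit ranged from 5650 normalized counts in G2 to 12901 in C6, a ratio of 2.28. Hdc, the histidine decarboxylase gene, ranged from 415 in G2 to 809 in A2, a ratio of 1.95. The SD of log2(normalized count + 1) over the 24 samples was 1.06 for Cpa3, 0.88 for Tpsb2, 1.14 for Tpsab1, 0.94 for Cma1, 1.01 for Fcer1a and 0.57 for Ms4a2, against 0.36 for Kit and 0.27 for Hdc. The median SD over all genes was 0.37, so 6 members varied more than the median gene and Kit and Hdc did not. SDs of low genes include counting error, and their mean counts lay between 12.4 (Fcer1a) and 217 (Cpa3).

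The first comparison asked whether the mast cell genes differed between the letters. They did not by the test used: in limma's F test over the 4 letters, 0 of the 8 members had an adjusted p-value under 0.05 and 0 had an unadjusted one under 0.05. Over all genes the same test called 0.00652%, or 2 of 30667, and 3.91% had an unadjusted p under 0.05. Unadjusted p-values of the members lay between 0.288 (Tpsab1) and 0.957 (Cma1).

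**Figure D1:**
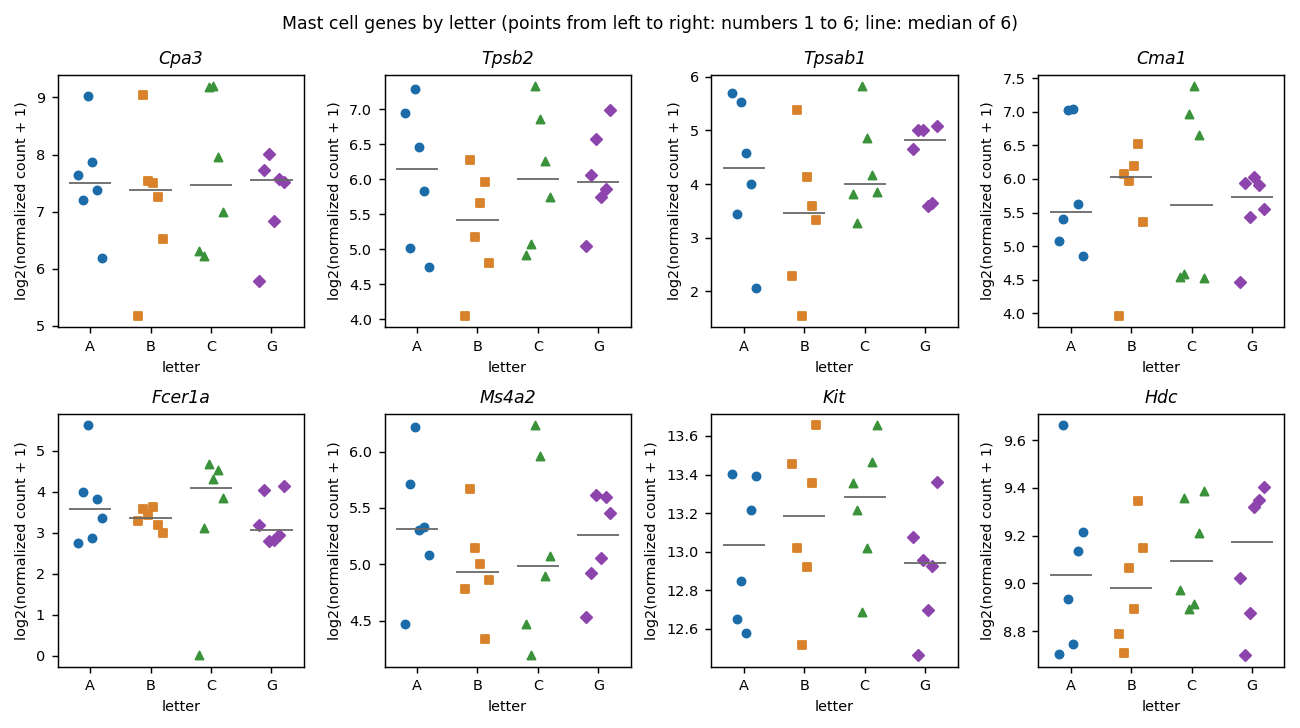
Log2(normalized count + 1) of the 8 mast cell genes by letter, with the 6 samples of a letter from number 1 on the left to number 6 on the right and a line at the median of 6. The ranges of all letters overlap in every panel, as for Cpa3, where the medians were 182, 167, 187 and 187 normalized counts in A, B, C and G.

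Cpa3 had 72.0 normalized counts in the lowest A sample, a median of 182 and 518 in the highest. In B these were 35.2, 167 and 529. In C they were 74.2, 187 and 587, and in G 54.4, 187 and 256. The 4 medians lay close together, and the ranges overlapped throughout. The mean of the A samples was 222 ± 155, that of B 196 ± 173, that of C 282 ± 242 and that of G 168 ± 72.5 (SD, n = 6). Letters next to each other in this order of means did not differ beyond their spread.

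Cma1 had medians of 44.8, 64.2, 61.2 and 52.3 normalized counts in A, B, C and G, inside overlapping ranges of 27.8 to 131, 14.6 to 90.8, 22.0 to 166 and 21.1 to 64.5. Tpsb2 had medians of 71.7, 42.4, 64.2 and 61.5, and Tpsab1 of 18.9, 10.1, 15.2 and 27.6. Both tryptases thus had their lowest median in B. The largest letter difference of any member was that of Tpsab1 in G against B, at 1.12 on the log2 scale (SE 0.61, limma unadjusted p = 0.0766), which did not pass.

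Fcer1a had medians of 11.2, 9.29, 16.1 and 7.39 normalized counts in A, B, C and G, and Ms4a2 of 38.8, 29.5, 30.7 and 37.5. Kit had medians of 8453, 9388, 9998 and 7870, with a range in G of 5650 to 10526. Hdc had medians of 525, 505, 547 and 579. In the 6 pairwise letter contrasts, 0 of the 8 members passed the threshold in any and 0 had an unadjusted p under 0.05. The background called was 0% of genes in the 3 contrasts without G, 0.00652% for G against A and likewise for G against C, and 0.00326% for G against B. Unadjusted p-values under 0.05 came from 3.58% of genes for B against A, 2.98% for C against A, 1.82% for C against B, 8.15% for G against A, 3.67% for G against B and 4.03% for G against C.

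The 95% intervals show which differences the fit of letter means leaves possible. That fit has no term for the number, so the spread between numbers is part of their width. For Cpa3 the 6 letter differences lay between -0.40 and 0.47 on the log2 scale, with intervals reaching from -1.62 to 1.69. For Kit they lay between -0.32 and 0.22, with intervals from -0.72 to 0.62, and for Hdc between -0.08 and 0.13, with intervals from -0.40 to 0.45. All 48 intervals included 0. The intervals were thus narrowest for Hdc and Kit. For Cpa3, Tpsb2, Tpsab1, Cma1 and Fcer1a they included differences beyond 1 on the log2 scale in either direction. For Ms4a2 they reached from -1.06 to 0.91.

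The second comparison asked whether the members differed between the sample numbers. What a number stands for is not given. In the F test over the 6 numbers, 3 of the 8 members passed (37.5%), Cpa3, Cma1 and Kit, where 30.3% of all genes did, so the share is close to the background. The limma adjusted p-values were 0.0332 for Cpa3, 0.00108 for Cma1 and 0.000620 for Kit. Those of Ms4a2 (0.0841), Hdc (0.156), Fcer1a (0.247), Tpsb2 (0.339) and Tpsab1 (0.917) did not pass. Between numbers lay 47.2% of the variance of Cpa3, 67.8% of Cma1 and 69.4% of Kit on the log2 scale, and between letters 3.67%, 1.33% and 12.2%. Over all genes the medians were 37.1% between numbers and 9.45% between letters. For Tpsab1 the shares were 7.27% and 14.9%.

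Each number was then set against the mean of the others. In number 1, 2 of the 8 members were called, where 11.0% of all genes were. In numbers 3, 4 and 6 it was 1 member each, where 4.42%, 4.20% and 7.25% of genes were called. In number 2 limma called 0 members at the adjusted threshold and 1 at an unadjusted p under 0.05, against 20.8% and 31.5% of genes. In number 5 it called 0 and 0, against 1.61% and 14.6%. The median log2 difference of the 8 members was -0.73 in number 1 and 0.77 in number 3.

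**Figure D2:**
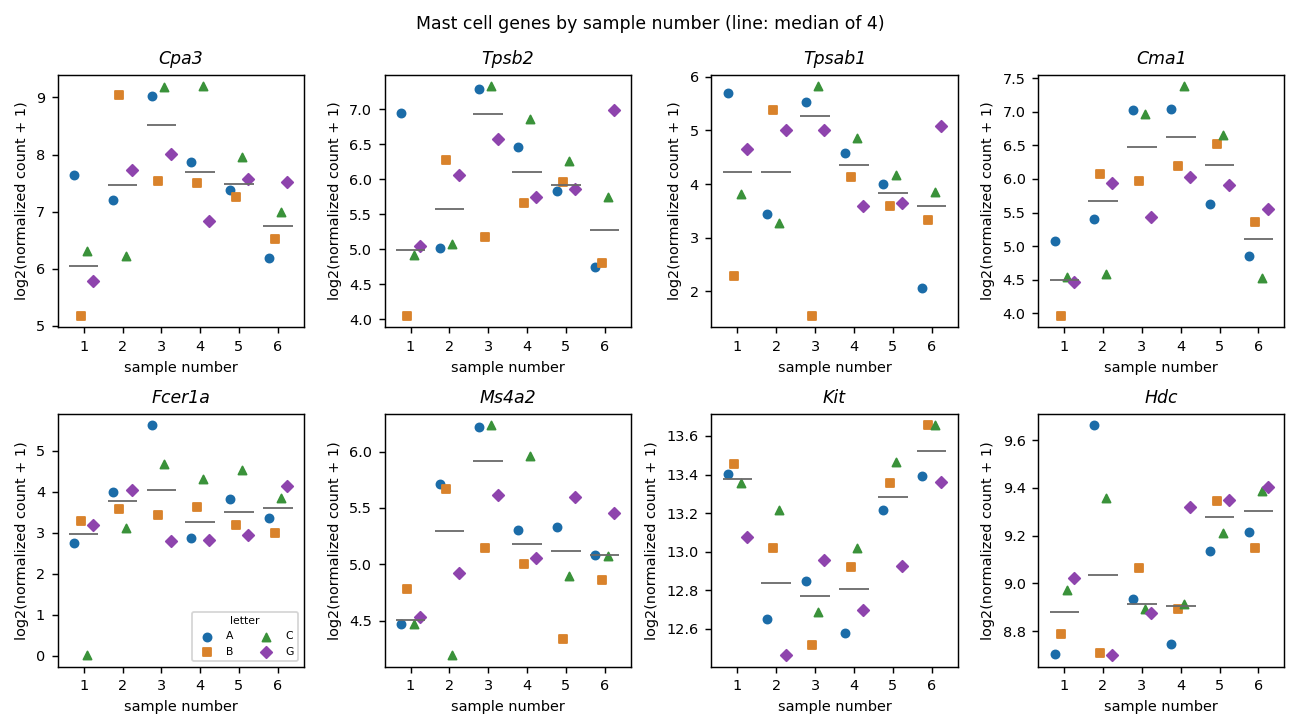
Log2(normalized count + 1) of the 8 mast cell genes by sample number, with 1 point per letter and a line at the median of the 4 samples. Cma1 is low in all 4 samples of number 1 and Kit is high in all 4 of number 6, while the tryptases Tpsb2 and Tpsab1 spread widely within numbers.

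Cpa3 had its lowest mean in number 1, though not its lowest value in every letter, with 199 normalized counts in A1, 35.2 in B1, 78.6 in C1 and 54.4 in G1. In number 2 it had 147, 529, 74.2 and 212 in A, B, C and G. In number 3, where the mean was highest, it had 518, 185, 580 and 256. B2 thus stood with the highest samples while C2 stood with the lowest. In number 4 the values were 233, 181, 587 and 113, in number 5 165, 152, 248 and 190, and in number 6 72.0, 91.2, 126 and 183. The order of the means was 3, 4, 2, 5, 6 and 1, from 385 ± 194 to 91.9 ± 73.8 (SD, n = 4), and every neighbouring pair overlapped.

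Against the other numbers, Cpa3 was lower in number 1 by -1.41 on the log2 scale (SE 0.42, 95% interval -2.28 to -0.53, limma adjusted p = 0.0328), where 5.74% of all genes were called lower. In number 3 it had a difference of 1.24 (SE 0.42), which did not pass (adjusted p = 0.108). The call of Cpa3 in number 1 was lost without B1 (adjusted p = 0.209), C1 (0.0819) or G1 (0.120), and with quantile normalization (0.0518). Its call over the 6 numbers was lost without A3 (0.0725), A6 (0.0524), B1 (0.0939), B6 (0.0530), C1 (0.0626), C3 (0.0770) or G1 (0.0795), and with A2, A4 and B4 left out (0.0603). In number 3 it was gained without B2 (0.0488).

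Cma1 had 32.7 normalized counts in A1, 14.6 in B1, 22.2 in C1 and 21.1 in G1. In number 2 it had 41.3, 66.6, 23.0 and 60.7 in A, B, C and G, and in number 3 129, 61.8, 124 and 42.0. All 4 samples of number 1 were therefore below all 4 of number 3. In number 4 the values were 131, 72.3, 166 and 64.5, in number 5 48.2, 90.8, 99.4 and 59.0, and in number 6 27.8, 40.1, 22.0 and 45.7. The means ran from 108 ± 48.4 in number 4 to 22.7 ± 7.46 in number 1 (SD, n = 4), in the order 4, 3, 5, 2, 6 and 1. Every neighbouring pair in that order overlapped, as did numbers 5 and 2, where A5 had 48.2 and B2 66.6.

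Cma1 was lower in number 1 than in the other numbers by -1.44 on the log2 scale (SE 0.30, limma adjusted p = 0.00276), and this call held whichever of the 24 samples was left out, at an adjusted p of at most 0.0265. So did the calls of Cma1 and Kit over the 6 numbers (at most 0.00408 and 0.00212). In number 4 it was higher by 1.14 (SE 0.30, adjusted p = 0.0331), where 2.41% of all genes were called higher. That call was lost without A4 (adjusted p = 0.163), B4 (0.0610) or C4 (0.139), and with A2, A4 and B4 left out (0.320). Number 4 held the highest Cma1 value in 3 of the 4 letters.

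The remaining granule genes did not differ by number beyond their spread. Tpsb2 had 122 normalized counts in A1 but 15.6 in B1, 29.2 in C1 and 32.2 in G1. Its differences were -0.75 in number 1 (SE 0.42, adjusted p = 0.312) and 0.88 in number 3 (SE 0.42, adjusted p = 0.300). Tpsab1 reached 45.1, 31.0 and 55.9 in A3, G3 and C3 and had 1.91 in B3, so number 3 held both the highest and the lowest value of the gene.

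Of the receptor chains, Ms4a2 had 21.1, 26.4, 21.2 and 22.1 normalized counts in A1, B1, C1 and G1 and 73.2, 34.3, 74.2 and 47.9 in A3, B3, C3 and G3. The values of number 1 were all below those of number 3, and number 3 held the highest Ms4a2 value in 3 of the 4 letters. The differences were -0.72 for number 1 (SE 0.25, adjusted p = 0.0719) and 0.77 for number 3 (SE 0.25, adjusted p = 0.0935), neither of which passed. The former passed without B3 (0.0482), B5 (0.0462) or C2 (0.0260). The F test of Ms4a2 over the numbers passed without B3 (0.0428) or C2 (0.0376).

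Fcer1a had 5.72, 8.80, 0.0133 and 8.05 normalized counts in A1, B1, C1 and G1, and 48.1, 9.79, 24.4 and 5.99 in A3, B3, C3 and G3. Its difference in number 1 was -1.37 on the log2 scale (SE 0.48, adjusted p = 0.0712), and it passed without G3 (0.0440). C1 is the lowest of all 24 samples, and on this scale its near-zero value weighs heavily.

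**Figure D3:**
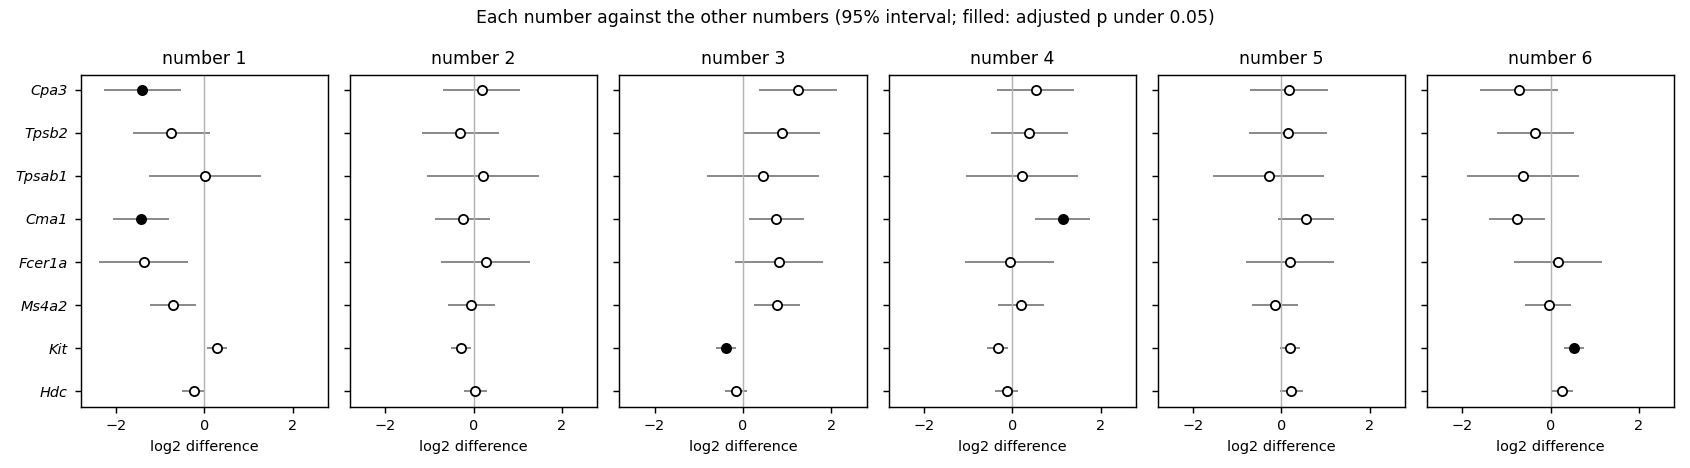
Log2 difference of each mast cell gene in 1 number against the mean of the other numbers, with 95% intervals from the limma fit, and filled points where the adjusted p-value was under 0.05. In number 1 Cpa3 (-1.41) and Cma1 (-1.44) are filled on the left, Cma1 is filled in number 4 (1.14), and Kit in number 3 (-0.39) and number 6 (0.52).

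Kit had 10835, 11237, 10473 and 8625 normalized counts in A1, B1, C1 and G1, and 6436, 8308, 9522 and 5650 in A2, B2, C2 and G2. In number 3 it had 7378, 5858, 6597 and 7960, and in number 4 6125, 7751, 8289 and 6635. These samples of numbers 2 to 4 were all below those of number 6, which had 10758, 12896, 12901 and 10526. In number 5, which overlapped with both, it had 9528, 10468, 11327 and 7779. The order of the means was 6, 1, 5, 2, 4 and 3, from 11770 ± 1306 to 6948 ± 917 (SD, n = 4), with overlap between all neighbours.

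Kit was higher in number 6 than in the other numbers by 0.52 on the log2 scale (SE 0.11, limma adjusted p = 0.00588), where 3.71% of all genes were called higher, and lower in number 3 by -0.39 (SE 0.11, adjusted p = 0.0460), where 1.92% were called lower. The first call was lost without B6 (0.0502). The second was lost for 15 of the 24 samples when left out singly, where the adjusted p reached 0.223, and held without A2, A4, C2 or any of the 6 G samples. Kit also gained calls in number 1 without C2 (0.0478), in number 2 without C2 (0.0134) or G5 (0.0428) and in number 4 without G2 (0.0416). With the letter as a term beside the number, Kit passed in number 1 (0.0482), number 2 (0.0318) and number 4 (0.0474) as well.

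Hdc had its higher levels in numbers 5 and 6, with 561, 649, 592 and 652 normalized counts in A5, B5, C5 and G5 and 594, 566, 668 and 676 in A6, B6, C6 and G6. In number 1 it had 416, 441, 502 and 519, all lower than these. A2, at 809, was the highest of all. Hdc passed in no number contrast, with differences of -0.24 in number 1 (SE 0.12, adjusted p = 0.247) and 0.26 in number 6 (SE 0.12, adjusted p = 0.231). Its F test over the numbers passed without A2 (0.0429), and with A2, A4 and B4 left out (0.0488).

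Markers of other cells moved between the numbers too. In number 1, 5 of 7 smooth muscle markers were called higher, where 5.23% of all genes were, with a summed level of 31672 to 43299 normalized counts against 18172 to 25500 in number 6. In number 1, 2 of 8 neutrophil markers were called lower, where 5.74% of all genes were, with a summed level of 3089 to 13446. There 4 of 10 endothelial markers were called higher, with a summed level of 352372 to 385131. Both ranges overlapped with those of number 6, which were 5564 to 11118 for neutrophil and 335272 to 389204 for endothelial markers. No marker of these 3 lists was at 0 in any sample. In number 6, 7 of 7 B cell markers were called higher, where 3.71% of all genes were, with a summed level of 4602 to 5366, against 2179 to 3237 in number 3. The part of these cells in the mast cell results was not tested. In bulk tissue fewer mast cells and less transcript per cell cannot be told apart.

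The members were then compared with each other across the 24 samples. The 6 genes other than Kit and Hdc were positively correlated in all 15 pairs on the log2 scale, with Pearson's r from 0.28 to 0.86 and Spearman's rho from 0.31 to 0.87. Cpa3 and Tpsb2 had an r of 0.86 (rho 0.87), Cpa3 and Cma1 0.84 (rho 0.79), and the tryptases Tpsb2 and Tpsab1 0.83 (rho 0.85). Reads of the tryptase genes may have been split or shared between these close copies, so their correlation is uncertain. Fcer1a and Tpsab1, both low in counts, had the lowest value, 0.28. Samples that share a number are not independent, so no p-value is given. As deviations from the number means, the 15 correlations lay between 0.32 and 0.92. Leaving out the 2 samples farthest from the median of the first gene of a pair gave 0.35 to 0.82.

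**Figure D4:**
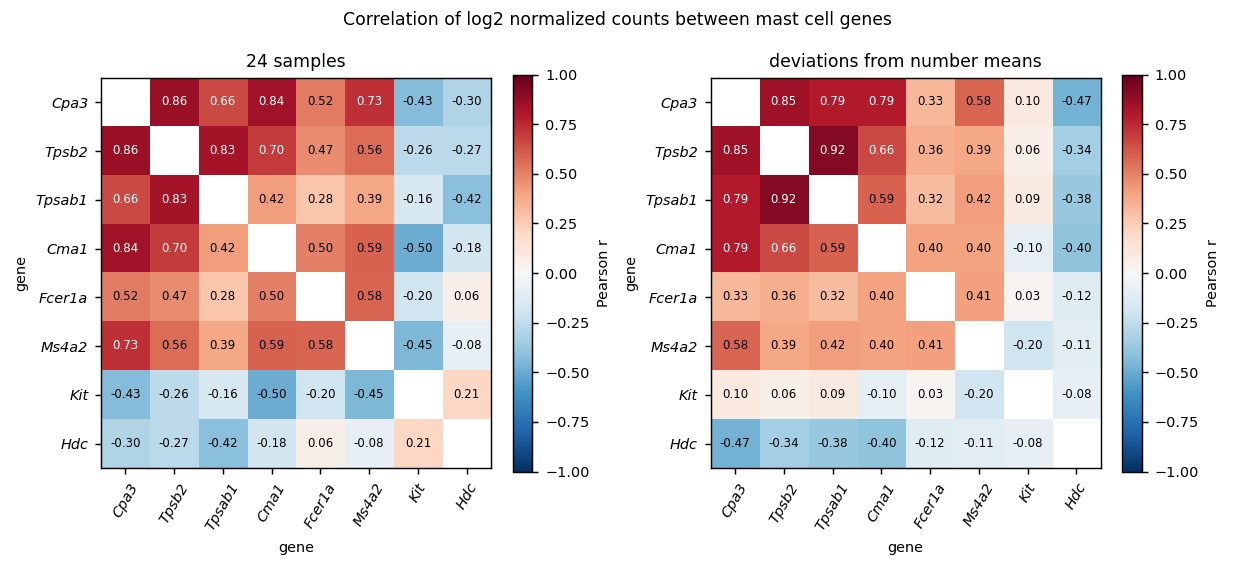
Pearson correlation of log2(normalized count + 1) between mast cell genes over 24 samples (left) and after taking away the mean of each sample number (right). The 6 genes from Cpa3 to Ms4a2 form a block of positive values, from 0.28 upward on the left and from 0.32 upward on the right, and Kit and Hdc stand outside it.

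Kit and Hdc did not follow the other 6. Kit had negative correlations with all 6, from -0.50 with Cma1 to -0.16 with Tpsab1, and within numbers these became -0.20 to 0.10. The correlations of Kit were thus closer to 0 within numbers than over all samples. Hdc correlated with the 6 by -0.42 to 0.06, and by -0.47 to -0.11 within numbers. Kit had an r of 0.60 (rho 0.66) with the mean level of 10 lung endothelial markers, 0.59 without the 2 farthest samples and 0.36 within numbers. The link was not particular to endothelium. Kit also had an r of 0.53 with the B cell markers (-0.11 within numbers) and -0.52 with the neutrophil markers (-0.39 within numbers). Within numbers the value farthest from 0 was -0.73, with the eosinophil markers. Hdc had an r of 0.57 (rho 0.49) with the mean of 8 neutrophil markers, 0.37 without A2 and G6 and 0.77 within numbers. Of all lists this was the highest r over all samples and within numbers, but not without A2 and G6. Without these samples Hdc had 0.46 with the eosinophil and 0.43 with the endothelial markers (0.20 and -0.07 within numbers). Within numbers it also had 0.65 with genes of IgE receptor signalling and 0.55 with markers of type 2 innate lymphoid cells.

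A mast cell score was taken as the mean of the 6 genes without Kit and Hdc, each as log2(normalized count + 1) minus its mean over the 24 samples. It was highest in A3 (1.50), C3 (1.42) and C4 (1.14) and lowest in B1 (-1.36), C1 (-1.27) and A6 (-0.90). Its medians by letter, in the order A to C and then G, were 0.10, -0.31, 0.09 and 0.13, and the range was narrowest in G, from -0.67 to 0.51. By number the medians were -0.97, 0.09, 0.85, 0.24, 0.01 and -0.46 for numbers 1 to 6. A3 and C3 led the score while B3 had -0.48 and G3 0.29, so a common number did not bring a common level.

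The genes whose pattern was most like this score, out of 21914 other genes with a mean of at least 10, were led by Mcpt1, a further mast cell chymase (r = 0.84, rho 0.85, n = 24). Mcpt4, also a mast cell chymase, was the eighth (r = 0.80, rho 0.88). Neither gene entered the score. Of the other 8 among the highest 10, 6 were immunoglobulin kappa variable genes, among them Igkv4-90, Igkv10-96, Igkv14-111, Igkv9-129 and Igkv3-7, with r between 0.79 and 0.84, and 2 were the gene models Gm14127 and Gm17472. Igkv14-111 had 21.5 normalized counts in B1 and 1056 in A3, the samples with the lowest and highest mast cell score. The B cell markers as a list had an r of -0.38 with the score and 0.01 within numbers. Kappa variable genes are related in sequence, to differing degrees, and the reads assigned to each are uncertain.

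For Cpa3 alone, Mcpt1 was again first (r = 0.90), followed by Plcb2 (0.79), Lingo3 (0.79), Mcpt4 (0.79) and Duoxa1 (0.78). The 5 genes most like Kit were Cacnb2 (0.94), Prickle2 (0.93), Maoa (0.92), Scaf8 (0.92) and Csnk1a1 (0.90). Those most like Hdc were Tyms (0.81), Ccdc190 (0.77), Oard1 (0.76), Kcne3 (0.75) and Ggt5 (0.74). The members were left out of these rankings. None of the genes listed for Kit or Hdc appears among those most like the score. This follows from the negative r of Kit (-0.39) and Hdc (-0.26) with the score and is no separate result.

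Of the other mast cell granule genes, 13 of 21 were in the table, 0 were called over the letters and 4 over the numbers, near the 30.3% of all genes, namely Serpinb1a (limma adjusted p = 0.000562), Rab27b (0.00365), Mcpt1 (0.0352) and Gzmb (0.0474). Mcpt1 had 15.1 to 29.8 normalized counts in number 1 and 56.9 to 187 in number 3. Its differences of -1.35 in number 1 (adjusted p = 0.0652) and 1.42 in number 3 (adjusted p = 0.0899) did not pass. Mcpt4 had 17.2 to 240 normalized counts and an adjusted p of 0.224 over the numbers. Mcpt2, a chymase of mucosal mast cells in rodents, had at most 22.9 and was listed at 0 in A1, B1, C2 and C6. Chymase genes form a cluster of close copies that differs between mouse and rat, and rat RefSeq has 12 symbols of the form Mcpt and a number, of which 4 are in the table. Mcpt8, a basophil protease in mice, had 164 to 222 normalized counts in number 1, below every sample of the other numbers, and was called lower there (adjusted p = 0.00210). It was the only 1 of 5 basophil markers in the table called lower in number 1, where 5.74% of all genes were. For 3 of the 5 the difference was positive, and the median of the list was 0.11 on the log2 scale.

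Of 21 genes of IgE receptor signalling, all were in the table, 0 were called over the letters and 20 over the numbers, where 30.3% of genes were called. The 6 with the smallest p-values were Lat2 (limma adjusted p = 1.13e-05), Btk (1.40e-05), Fcer1g (3.98e-05), Adora3 (4.97e-05), Lat (7.21e-05) and Stxbp2 (0.000105). These adaptors, kinases and release factors are shared with other leukocytes. Fcer1g, the gamma chain that macrophages and neutrophils also make, had 4610 to 4817 normalized counts in number 1 and 6707 to 9939 in number 2. It was lower in number 1 by -0.37 (adjusted p = 0.00279) and higher in number 2 by 0.53 (adjusted p = 5.33e-05) and in number 3 by 0.28 (adjusted p = 0.0414). The list as a whole had an r of 0.19 (rho 0.13) with the mast cell score. In number 2, 3 of 8 neutrophil markers were called higher and 9 of 10 endothelial markers lower, where 11.0% of all genes were called higher and 9.74% lower. Their part was not tested.

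Among 8 transcription factors of the lineage, 0 were called over the letters and 7 over the numbers, where 0.00652% and 30.3% of all genes were. Mitf, which activates protease genes in mast cells and is also used by macrophages, had 1789 to 2251 normalized counts in number 3 and 1087 to 1204 in number 6. It was higher in number 3 by 0.58 (limma adjusted p = 1.81e-05) and lower in number 6 by -0.43 (adjusted p = 0.000364). Runx1 was higher in number 3 by 0.33 (adjusted p = 0.00574) and lower in number 1 by -0.29 (adjusted p = 0.00656). Of the 8 factors it had the highest r with the score over all samples, 0.68. This was 0.52 without A3 and C3 and 0.48 within numbers. Within numbers Mitf had the highest r of the 8, 0.61, but it had 0.27 without A3 and C3. Over all samples the other factors had an r of 0.52 (Mitf), 0.49 (Lyl1), 0.44 (Spi1), 0.37 (Gata1), 0.18 (Ikzf1), -0.07 (Tal1) and -0.20 (Gata2). Spi1, Ikzf1, Lyl1 and Gata1 also passed over the numbers (adjusted p = 3.98e-05, 0.000378, 0.00127 and 0.00254). Gata2 had 7440 to 21558 normalized counts and did not pass over the numbers (adjusted p = 0.119), though it was lower in number 2 by -0.44 (adjusted p = 0.0199). In G against A it had a difference of 0.49 (adjusted p = 0.345). Lung endothelium also makes Gata2.

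Of the growth and survival genes, 11 of 14 were in the table, with 0 called over the letters and 7 over the numbers (30.3% of all genes). Kitl, the gene of stem cell factor, had 8561 to 14108 normalized counts in number 2 and was lower there by -0.38 (limma adjusted p = 0.00295), while it did not pass in number 1 (0.22, adjusted p = 0.113) or number 3 (-0.25, adjusted p = 0.114). Csf2rb, the common beta chain of the interleukin-3 receptor, was higher in number 2 by 1.52 (adjusted p = 6.59e-06), and Bcl2a1a, a survival gene of the BCL2 family, by 0.97 (adjusted p = 2.22e-05). Il33, an alarmin that acts on mast cells, was lower in number 2 by -0.38 (adjusted p = 0.000758). Il1rl1, its receptor, was higher in number 1 by 0.71 (adjusted p = 0.00446), and Stat5a was lower there by -0.25 (adjusted p = 0.00844).

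Of 16 histamine and lipid mediator genes, 15 were in the table, with 0 called over the letters and 8 over the numbers (30.3% of all genes). The genes of leukotriene synthesis were higher in number 3: Ltc4s by 0.81 (limma adjusted p = 0.000526), Alox5 by 0.54 (adjusted p = 0.00384) and Alox5ap by 0.45 (adjusted p = 0.00469). Ltc4s, the leukotriene C4 synthase gene, had 110 to 177 normalized counts in number 3, against 60.1 to 89.4 in number 6. Hpgds, the prostaglandin D synthase gene, was lower in number 1 by -0.64 (adjusted p = 0.00491). Aoc1, which encodes a histamine-degrading oxidase, was higher in number 2 by 1.19 (adjusted p = 0.000109), and Hrh2, a histamine receptor, by 0.76 (adjusted p = 0.0446). These enzymes and receptors are made by other leukocytes as well. Hnmt, the other gene of the list, had no row under that name.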

How the data were processed

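Lung mRNA was measured in 24 samples. The submitters' processing notes name STAR and GRCm38, a mouse build, without giving their role, although the samples are rat, and the row names follow mouse use (Kitl, Gm gene models). If rat reads were counted on mouse genes, the level of a gene also depends on how alike the species are there. The deposited values are of the unit signal: normalized read counts per gene, close to equal in total, whose counting and normalization are not given in the sources used here, nor whether strand was used. Raw counts could not be recovered, so the count test in the design did not apply and no count test was run. All 8 member names match rat RefSeq symbols (assembly GRCr8, used for names and promoters).

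Here, limma 3.58.1 (R 4.3.3, with trend) was fitted to log2(value + 1) for the 30667 genes with a mean of at least 0.5: 1 fit of letter means and 1 of number means over all 24 samples, with two-sided p-values and Benjamini-Hochberg adjustment over all genes of each test (threshold 0.05), but not over the 14 tests. A number was set against the mean of the other 5 number means. The fit was tested on simulated data. Named genes are the members, the 10 most like the score, the 5 most like Cpa3, Kit and Hdc each, called pathway genes (at most 6 a list) and 8 preset ones; others were chosen after their values were seen. The members and lists were chosen with earlier results of these data known.

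Equal numbers were checked as pairs by the correlation of deviations from letter means over 21922 genes. All 6 pairs exceeded 0.1 in B against A (0.17 to 0.59) and C against B (0.13 to 0.60), which takes the pairing from the data and not from a label. In the other 4 contrasts 1 or 2 pairs did not. Alternatives were other pseudocounts, filters and scalings, the number as a replicate block, each sample left out, and A2, A4 and B4 left out.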

Additional observations from a re-analysis of the deposited data

Results flagged for a closer look

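Within each letter (6 samples) and each number (4 samples), the distance of the highest and lowest log2 value from its neighbour was divided by the whole range and held against Dixon's 95% critical value. Over the 8 members and the mast cell score 90 groups were examined, where chance picks about 1 in 20, or 4.5, and 2 values were picked out. Both are the same value: Fcer1a had 0.0133 normalized counts in C1, where the next lowest sample of letter C had 7.67 (gap share 0.67) and the next lowest of number 1 had 5.72 (gap share 0.83).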

How the results depend on the processing

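In the letter tests 0 members were called under all alternatives run, the replicate block (the number as a factor) included, and none of 1736 values of single members changed its call. The replicate block changed only counts over all genes: 12 over the letters, 391 for G against A, 2 for G against B and 11 for G against C. Over the letters 1 gene was called with a pseudocount of 10, with quantile normalization, with scaling to the 75th percentile and without A2, A4 and B4, as in G against A without these 3. In the number tests 32 of 1736 values of single members lost their call, 17 gained one and 0 reversed. Members called became 1 in number 1 (quantile normalization), 1 in number 2 (75th percentile, or letter as a term), 2 in number 4 (letter as a term) and 0 in number 4 without A2, A4 and B4. Without these 3 samples, genes called were 3162 in number 2, 106 in number 4 and 852 in number 5. Leaving out each sample gave 1 to 2 genes over the letters, 1 to 4 for G against A, and 1 to 2 each for G against B and G against C. Over the numbers it gave 8171 to 10229 genes and 2 to 4 members. For numbers 1 to 6 in turn it gave 2138 to 3844, 3238 to 6984, 481 to 1785, 380 to 1820, 3 to 801 and 674 to 2748 genes, and 1 to 4, 0 to 1, 0 to 1, 0 to 2, 0 to 0 and 0 to 1 members. The causes were not tested. DESeq2 was not run, since the values are not raw counts. The depth behind low members such as Fcer1a is unknown.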

Other observations

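The heart muscle markers had the most negative correlation with the mast cell score among the lists of other cell types. Over the 24 samples the mean level of 7 markers had an r of -0.52 (rho -0.49), -0.35 without A3 and C3, and -0.60 as deviations from the number means. Their summed level was lowest in C4 (561 normalized counts), which had the third highest mast cell score, and highest in A4 (59794), whose score of 0.40 was above 0 and stood at rank 7 of 24, against the direction of the correlation. Lists of tissues near the airways stayed closer to 0: cartilage had -0.17, mesothelium 0.21, smooth muscle -0.27 and large airway epithelium -0.15.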
